A study of Mus musculus with 26 samples.

Results

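The translation initiation and elongation factors of the mouse heart were followed after transverse aortic constriction (TAC), in which a band around the aorta makes the heart pump against a raised pressure. Members were all probe sets that the probe-to-gene table given with the series assigns to 1 gene with a symbol beginning with Eif, Eef or Pabpc, a rule that uses no measured value. It found 70 probe sets of 52 genes, out of 12422 probe sets and 8251 genes on the array. Of these, 51 probe sets of 43 genes passed a filter on dim signals and were tested. The 26 arrays fell into 6 groups: 5 TAC and 4 sham arrays at 48 h, 4 TAC and 4 sham arrays at 10 d, and 5 TAC and 4 sham arrays at 3 wk. A sham operation is the surgery without the constriction. The labels give mouse heart and total RNA, and no strain, sex, age or chamber of the heart. Nothing in them says whether the arrays stand for different animals, so the p-values rest on the spread among arrays, which may be technical.

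Translation of most mRNAs starts when eIF4E binds the cap, the scaffold eIF4G and the helicase eIF4A open the leader, and a small ribosomal subunit carrying eIF1, eIF1A, eIF3, eIF5 and the initiator tRNA on eIF2 scans to the start codon. Poly(A)-binding protein holds the tail of the message to eIF4G, eIF2B recharges eIF2 with GTP, and eEF1 and eEF2 then carry the ribosome along the message. Control acts on proteins as much as on transcripts: 4E-binding proteins block eIF4E until mTOR phosphorylates them, kinases phosphorylate eIF2 and thereby inhibit eIF2B, and eEF2 kinase slows elongation. A pressure-loaded heart muscle cell grows by making more protein than it breaks down, and an array reads the transcripts of this machinery, not its phosphorylation or its output.

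Promoter sequences are shown for Eif3m and Eif2b1, the members called below that have an entry in the RefSeq promoter table of the mouse genome (GRCm38.p6). Each runs from 100 bases before the annotated start of transcription through its first 20 bases, and capitals mark a match to CCGGAAG, a core that ETS-family transcription factors recognise.
Eif3m: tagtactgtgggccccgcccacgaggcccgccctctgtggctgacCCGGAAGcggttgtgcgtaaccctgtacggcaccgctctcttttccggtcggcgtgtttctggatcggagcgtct
Eif2b1: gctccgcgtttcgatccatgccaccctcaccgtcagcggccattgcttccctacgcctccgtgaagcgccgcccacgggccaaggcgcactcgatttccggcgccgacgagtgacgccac
The Eif3m stretch lies on the minus strand at chr2:105017008-105017127, and the Eif2b1 stretch on the minus strand at chr5:124579112-124579231. A search of both strands over windows from 250 bases before the start to 50 bases after it covered 42 of the 52 member genes. The other member genes were Pabpc1, Pabpc2, Eef1d, Eef1g, Eef1akmt1, Eif1a, Eif3e, Eif4ebp1, Eif4g2 and Eif6. CCGGAAG stood in the windows of 14 member genes (33.3%), against 9.93% of the 27025 genes of every kind in that table. The E-box CACGTG, the letters bound by factors of the MYC and USF type, stood in 10 member genes (23.8%), against 8.09% of all genes. The genes with an E-box included Eef2, Eef2k, Eif4e, Eif4a1, Eif5a and Eif3f, and those with CCGGAAG included Eif2b2, Eif2b4, Eif3c, Eif3d, Eif3l and Eef1b2. These matches describe letters in the reference genome and were not set against any measured value.

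The deposited values are linear intensities, 1 per probe set and array, and changes are given as log2 differences, TAC minus sham, from a limma fit over 7297 probe sets. A call is a Benjamini-Hochberg adjusted p under 0.05 over all of them. Intensities depend on the probes, so levels are compared between arrays and never between probe sets. Array medians ran from 741 to 816 at 48 h, 861 to 923 at 10 d and 905 to 1031 at 3 wk. Pearson r over probe sets, which are not independent replicates, was 0.922 to 0.961 for 2 arrays of one group. For 2 arrays of different groups it was 0.878 to 0.965. None of the 10 cardiomyocyte markers was under the floor (an intensity of 167.9) on all arrays of any group. The 3′ to 5′ signal ratios of Gapdh and Actb, which track how intact the RNA was, gave two-sided exact permutation p between 0.143 and 0.886 for TAC against sham. All 48 h arrays shared 1 scan day, the 10 d arrays shared another except TAC replicate 4, and the 3 wk arrays with a known day came from 2 days. One of these 2 days held only TAC replicates 4 and 5, so scan day and TAC are partly confounded at 3 wk. Chip lots, where given, were also uneven: at 3 wk 3 TAC and 2 sham arrays shared a lot and 2 TAC arrays had another. At 10 d 1 TAC array had a lot of its own.

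Across the translation factors the median difference between TAC and sham was small at every duration. The median log2 change of the 51 tested probe sets was 0.02 at 48 h, −0.01 at 10 d and 0.02 at 3 wk, beside −0.01, −0.02 and −0.01 over all 7297 tested probe sets. At 48 h 45 of the 51 (88.2%) lay within 0.25 of 0 on the log2 scale, where 76.2% of all tested probe sets did. The same count was 33 (64.7%, beside 56.4%) at 10 d and 35 (68.6%, beside 59.2%) at 3 wk. Several of the widest intervals belonged to dim probe sets, but a brighter one of Eif4ebp2 was among the widest too (SE 0.42 at 48 h). These shares were not matched for intensity. No member was called at 48 h, where 0.0548% of all tested probe sets were. At 10 d 3 members were called (5.88%), beside a background of 4.87%, so their share lay near that of the array: 2 rose, where 2.91% of all tested probe sets did, and 1 fell, where 1.96% did. None was called at 3 wk against a background of 4.73% (345 probe sets). That background depended on scan day: 19 probe sets of any kind were called with scan day as a block and 33 on the main scan day alone. Both of these fits used fewer arrays. At an unadjusted p under 0.05 the members counted 2 at 48 h, 13 at 10 d and 6 at 3 wk, or 3.92%, 25.5% and 11.8%, beside 6.17%, 21.0% and 19.6% of all tested probe sets. TAC and sham arrays did not overlap for 3 members at 48 h, 8 at 10 d and 3 at 3 wk (5.88%, 15.7% and 5.88%), beside 2.29%, 15.7% and 8.48% of all tested probe sets. With 1 probe set for each of the 43 tested genes, the calls were also 0, 3 and 0.

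**Figure D1:**
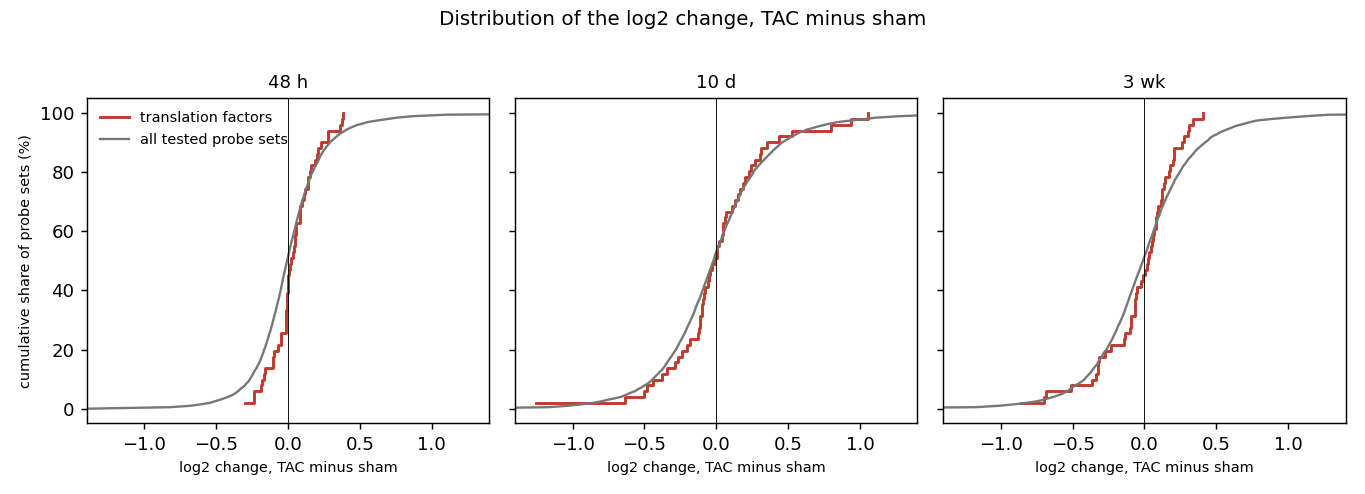
Cumulative share of probe sets (%, vertical axis) by log2 change, TAC minus sham (horizontal axis), at 48 h, 10 d and 3 wk; the stepped line is the 51 tested translation factor probe sets and the smooth line all 7297 tested probe sets. Both lines cross the middle close to 0 at each duration, with member medians of 0.02, −0.01 and 0.02.

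The calls at 10 d belonged to genes of different steps, with Pabpc1 and Eif2b1 higher and Eif3m lower in TAC hearts. Pabpc1 encodes the main cytoplasmic poly(A)-binding protein, which coats mRNA tails and joins them to the cap complex. Its intensity was 12512, 14593, 13537 and 16452 in the 4 TAC arrays at 10 d, against 11898, 8011, 11502 and 11089 in the 4 sham arrays. No sham array reached the lowest TAC array, although those values were close. The gene rose 1.35-fold (log2 0.44, SE 0.12, limma adjusted p = 0.0371). TAC replicate 4, the array of another scan day, was the highest of them, and within the main scan day the change was 0.36 (adjusted p = 0.127). Pabpc1 averaged 13.67 ± 0.15 (SD, n = 5) in TAC and 13.46 ± 0.15 (n = 4) in sham arrays on the log2 scale at 48 h, a change of 0.21 (adjusted p = 0.825). At 3 wk it read 0.28 (SE 0.12, adjusted p = 0.179), so the sign was the same at all 3 durations while only that at 10 d passed the test.

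Eif2b1 encodes the alpha subunit of eIF2B, the exchange factor that reloads eIF2 with GTP and through which phosphorylated eIF2 is sensed. At 10 d its intensity was 2096, 2074, 2453 and 2164 in TAC arrays, against 1514, 1929, 1317 and 1402 in sham arrays. The groups did not overlap, and the gene rose 1.44-fold (log2 0.52, SE 0.15, adjusted p = 0.0436). At 48 h the mean was lower in TAC arrays but the groups overlapped, with 1671, 1761, 1962, 1790.2 and 1839 in TAC arrays, against 2264, 2474, 2297 and 1874 in sham arrays. That change of −0.30 (SE 0.14, adjusted p = 0.803) was not called, and at 3 wk it was −0.09. The effect of TAC at 10 d exceeded that at 48 h by 0.82 on the log2 scale (SE 0.21), with the smallest unadjusted p of that difference among the members (0.000573), and it did not pass over all probe sets (adjusted p = 0.104). Within the main scan day at 10 d the change was 0.53 (adjusted p = 0.0866).

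Eif3m, a subunit of the scaffold eIF3, which bridges the small ribosomal subunit and eIF4G, was the member that fell. Its intensity at 10 d was 7931, 8731, 7441 and 7503 in TAC arrays, against 10227, 9883, 9861 and 10069 in sham arrays. The sham arrays lay in a narrow band above every TAC array, and the change was −0.34 (0.788-fold, SE 0.10, adjusted p = 0.0480). At 48 h the change was 0.01 and at 3 wk −0.06, and the test of 10 d against 48 h gave −0.36 (SE 0.14, adjusted p = 0.350).

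All 3 calls sat near the threshold and depended on single arrays. Eif2b1 was called in 12 of the 22 alternatives run for it, Pabpc1 in 11 and Eif3m in 8. Each kept its direction in all of them, but many could not change it. Other floors, filters and moderation settings, the fit of the compared groups alone and the block for replicate number left the change as reported. Scan day as a block, the main scan day alone and leaving out TAC replicate 4 gave one and the same change. Eif3m was not called without any one of the 8 arrays at 10 d (adjusted p 0.0516 to 0.126). Eif2b1 stayed called only without sham replicate 2 (0.0237), and reached 0.126 without TAC replicate 3. Pabpc1 was not called without TAC replicate 2 (0.0917), TAC replicate 3 (0.0661), TAC replicate 4 (0.128), sham replicate 2 (log2 0.31, adjusted p = 0.145) or sham replicate 4 (0.0599).

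**Figure D2:**
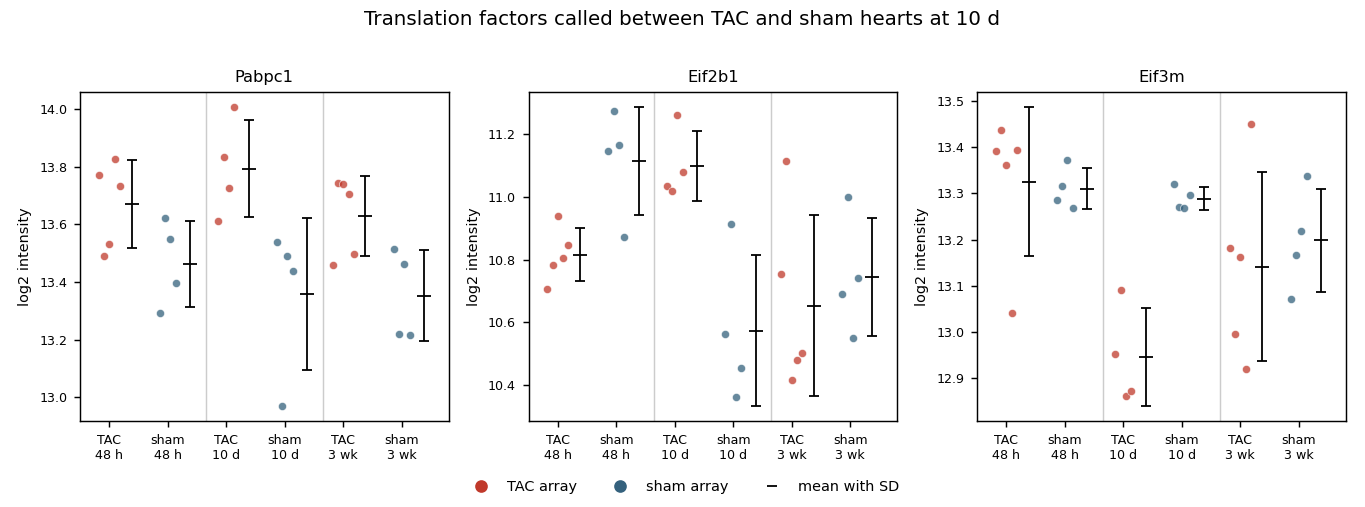
Log2 intensity (vertical axis) of Pabpc1, Eif2b1 and Eif3m on each array, grouped by duration with TAC left of sham; points are arrays and bars the mean with SD (n = 4 or 5). At 10 d the 4 TAC arrays of Pabpc1 and Eif2b1 lie above the 4 sham arrays, by 0.44 and 0.52 on average, and those of Eif3m lie below, by 0.34.

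Markers of other cell types also differed between TAC and sham arrays at 10 d and at 3 wk. At 10 d, of 9 macrophage markers 7 rose, where 2.91% of all tested probe sets did, with a summed intensity of 62728 to 69031 in TAC arrays and 44022 to 46438 in sham arrays. Of 8 fibroblast markers 5 rose (179492 to 234055 in TAC and 120572 to 134705 in sham arrays), and of 8 endothelial markers 4 rose (63798 to 75396 in TAC and 49782 to 51505 in sham arrays). Of the 10 cardiomyocyte markers none rose and 1 fell, and their sums overlapped, with 594720 to 1255030 in TAC and 638041 to 996899 in sham arrays. No marker of these lists was under the floor on all arrays of a group at 10 d. At 3 wk, where 2.99% of all tested probe sets rose, 6 fibroblast markers rose (172027 to 262821 in TAC and 126465 to 171042 in sham arrays), 4 macrophage markers (48051.6 to 65093.4 and 42774.8 to 48544.8) and 1 endothelial marker (55174.1 to 74337 and 48423.5 to 54882.2). The cardiomyocyte sums stood apart at 3 wk, with 731670 to 846746 in TAC and 883688 to 1096190 in sham arrays, and 1 of the 10 markers fell, where 1.74% of all tested probe sets did. The summed intensity of 5 skeletal muscle genes stood apart at every duration, with 109100 to 183372 in TAC and 72952 to 97197.6 in sham arrays at 48 h, 75260.5 to 169819 and 46390.9 to 60476.3 at 10 d, and 94540.1 to 122639 and 52200 to 62145.3 at 3 wk. Of the 3 of them that were tested 1 rose at 10 d and at 3 wk, Acta1, the skeletal alpha-actin that heart muscle also makes. At each duration 1 of the 5 was under the floor on all sham arrays, and at 10 d 1 was under it on all TAC arrays. The sums of smooth muscle, erythroid and lung markers overlapped between TAC and sham arrays at every duration. The part of these cells in the values of the translation factors was not tested, and in whole tissue fewer cells of a type and less RNA per cell cannot be told apart.

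The 17 tested probe sets for start-codon recognition and tRNA recruitment belonged to 13 genes, and Eif2b1 was the one called. The other measured subunits of eIF2B were not called. At 10 d Eif2b2, the beta subunit, read −0.44 (SE 0.20, adjusted p = 0.214), Eif2b4, the delta subunit, 0.02, and the 2 probe sets of Eif2b5, the catalytic epsilon subunit, −0.10 and 0.01. At 3 wk the TAC arrays of Eif2b2 all lay below its sham arrays, without a call. Eif2s3x and Eif2s3y encode the gamma subunit of eIF2 from the X and the Y chromosome. At 3 wk Eif2s3x had intensities of 9435, 10269.8, 10928, 11916 and 12278 in TAC arrays, against 10108, 9568, 8372 and 7489.7 in sham arrays. The groups overlapped, and the change of 0.31 (SE 0.09) missed a call (adjusted p = 0.0586). Within the main scan day, with 3 TAC and 2 sham arrays, it was 0.19 (adjusted p = 0.543), the lowest value among its alternatives. Eif2s3y, read by a probe set of the type that can match related sequences, gave 0.05, −0.20 and 0.21 at 48 h, 10 d and 3 wk, none called. Eif5b, which joins the ribosomal subunits, had 2 probe sets of opposite sign at 3 wk, −0.69 and 0.34, neither called, and on the main scan day alone they read −0.60 and 0.00. Eif2a, an alternative carrier of the initiator tRNA, read −0.34 at 3 wk (SE 0.16, adjusted p = 0.245). Eif1ax, the X-linked form of eIF1A, read −0.24 by one probe set and 0.11 by the other at 48 h.

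Of the 11 tested probe sets of eIF3 (10 genes), 1 fell at 10 d and none was called at the other durations. At 10 d 2 of the 11 changes were above 0, with a median of −0.12 beside −0.02 for all tested probe sets, whereas 6 were above 0 at 48 h and 8 at 3 wk. The subunits were not tested as a group, and 2 of the 11 probe sets belong to Eif3e. Eif3j1, a loosely attached subunit, had intensities of 6686, 6488, 5530.3 and 6401 in TAC arrays at 10 d, against 7552, 7487, 9508 and 8138 in sham arrays. Its groups did not overlap, yet the change of −0.38 (SE 0.16, adjusted p = 0.168) was not called. At 3 wk its change was 0.31 (adjusted p = 0.25), or 0.63 within the main scan day (adjusted p = 0.0820). The difference between the effects at 3 wk and 10 d was 0.69 (SE 0.22, adjusted p = 0.457). Eif3f read −0.64 at 10 d (SE 0.29, adjusted p = 0.209), while Eif3a, the largest subunit, read 0.15, and Eif3b, Eif3c, Eif3d, Eif3k and Eif3l lay between −0.18 and −0.05. At 48 h Eif3a read 0.28 (adjusted p = 0.818), and its groups did not overlap there. For 3 of the 11 probe sets (Eif3m, Eif3j1 and one of Eif3e) all TAC arrays lay below the sham arrays at 10 d, beside 8.02% of all tested probe sets (15.7% with no overlap in either direction). The other probe set of Eif3e read 0.04 at 10 d, and its groups overlapped.

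**Figure D3:**
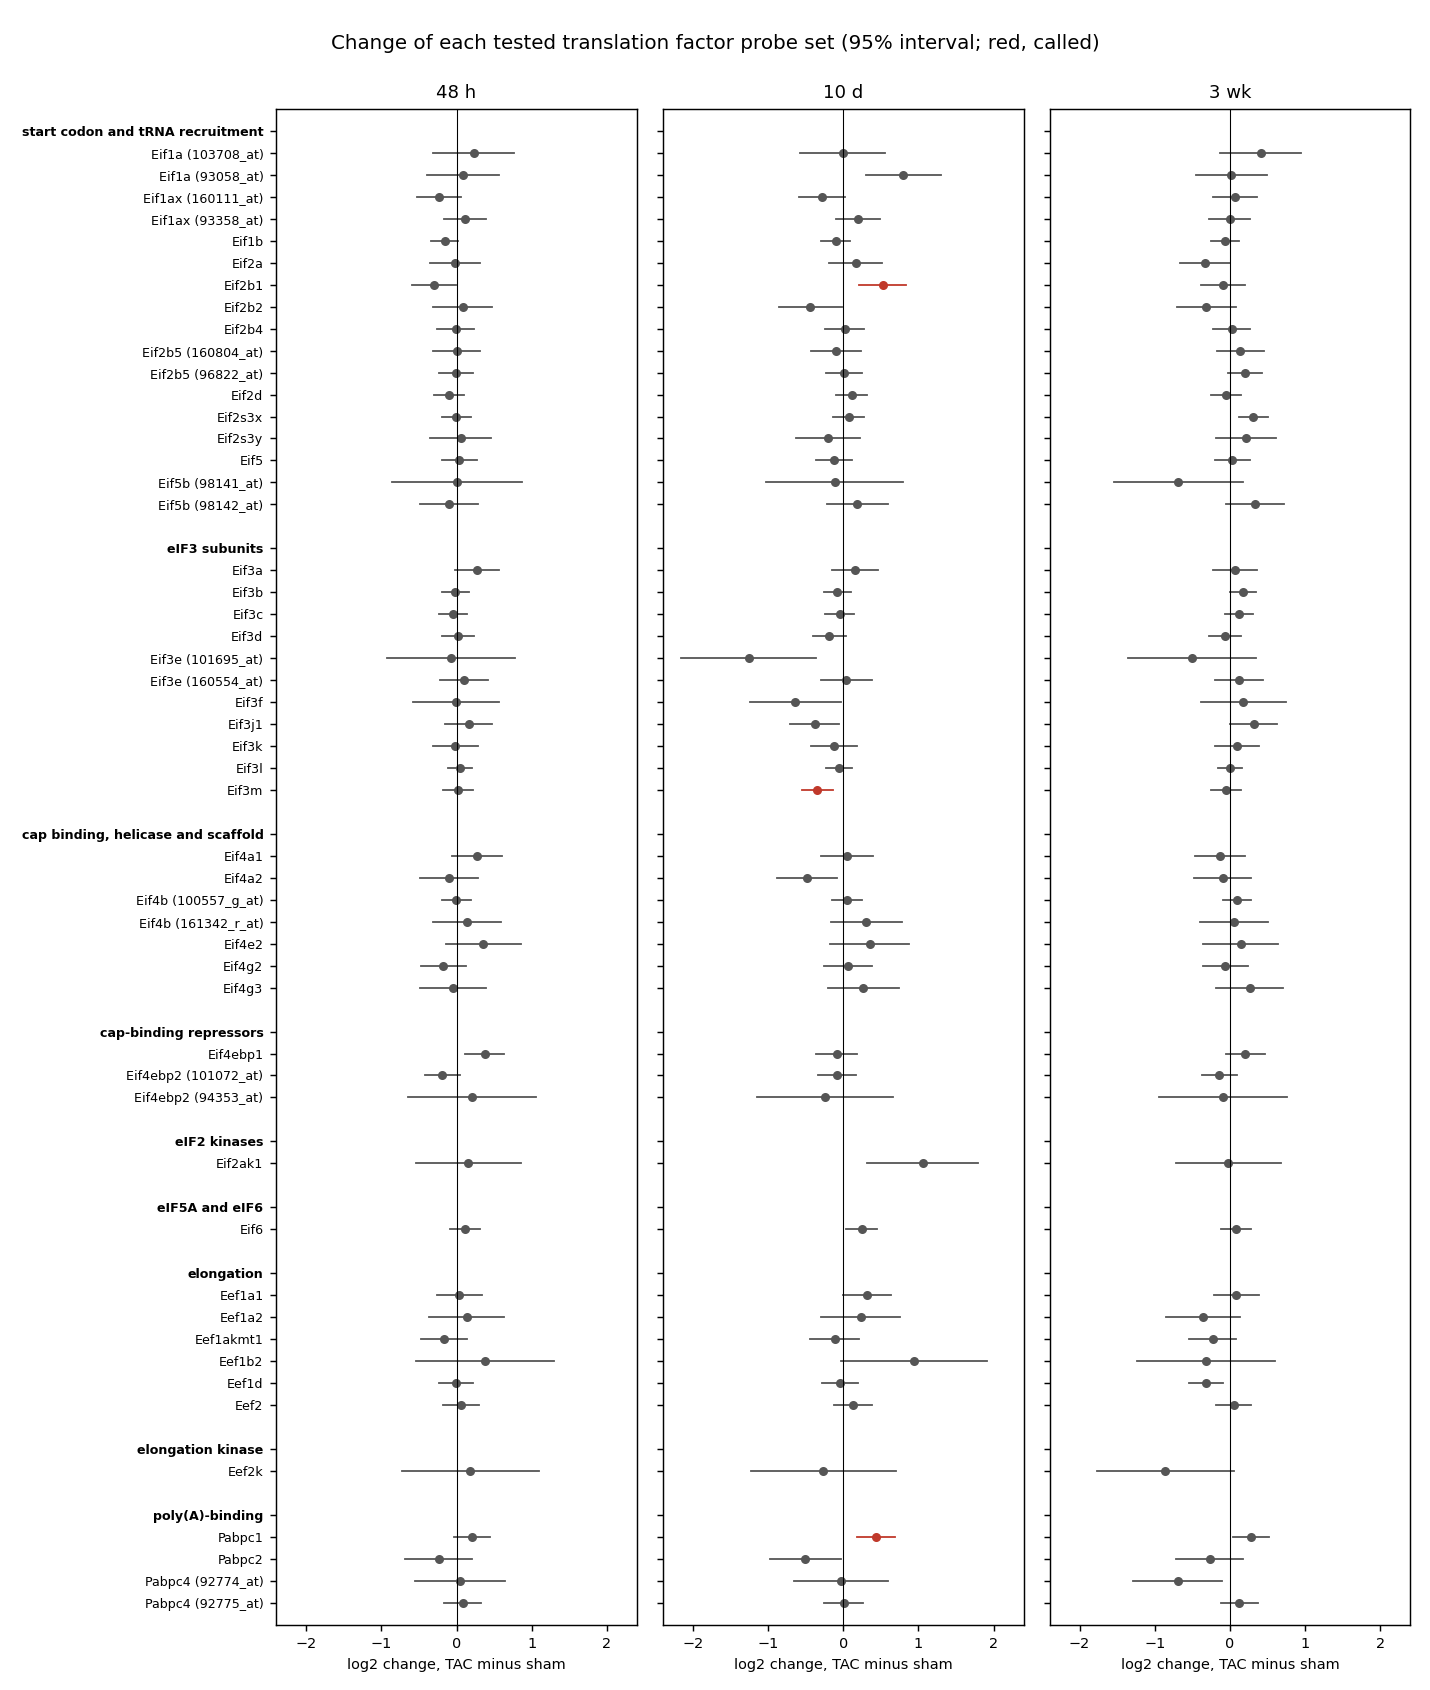
Log2 change, TAC minus sham (horizontal axes), of each of the 51 tested translation factor probe sets with its 95% interval at 48 h, 10 d and 3 wk, listed by role. Pabpc1, Eif2b1 and Eif3m at 10 d are the coloured, called points, and wide intervals include those of the dim probe sets of Eef2k and Eef1b2.

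The cap-binding, helicase and scaffold group had 7 tested probe sets (6 genes), none called. Eif4a1 and Eif4a2 encode 2 forms of the eIF4A helicase. Eif4a2 read −0.48 at 10 d (SE 0.20, adjusted p = 0.150), with 23926, 19844, 23766 and 10775 in TAC arrays, against 25189, 32118, 22048 and 25962 in sham arrays. The lowest value was that of TAC replicate 4, and the groups overlapped. Without that array the change was −0.22 (adjusted p = 0.510). Eif4a1 read 0.28, 0.05 and −0.14 at 48 h, 10 d and 3 wk. Eif4e2, a cap-binding homologue of eIF4E that does not bind eIF4G well, read 0.36 (SE 0.24, adjusted p = 0.913) at 48 h, and its groups did not overlap there. Eif4g2, a scaffold for cap-independent initiation, read −0.18, 0.06 and −0.06. The 2 probe sets of Eif4e itself and that of Eif4h stayed under the filter and were not tested.

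Among the repressors of cap binding, Eif4ebp1, the 4E-binding protein best known as a target of mTOR, had the smallest unadjusted p of the members at 48 h (0.00616). Its intensity was 7865, 6836, 5994, 5379 and 5455 in TAC arrays, against 4552, 4732, 5779 and 4293 in sham arrays. Sham replicate 3 lay within the range of the TAC arrays, and the change of 0.38 (SE 0.13) did not pass over all probe sets (adjusted p = 0.482). It read −0.09 at 10 d and 0.20 at 3 wk. Eif4ebp2, its paralogue, differed in sign between its 2 tested probe sets at 48 h: 1 read −0.19 (SE 0.11, adjusted p = 0.865) with TAC arrays at 11723 to 12773 and sham arrays at 13779.5 to 14142, and the other read 0.20 (SE 0.42).

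Of the 4 eIF2 kinases on the array, Eif2ak1, the haem-regulated kinase, was bright enough to be tested. Its change at 10 d, 1.06 (SE 0.36), was the highest value of any member on the log2 scale, and it was not called (adjusted p = 0.0842). The TAC arrays read 1904, 1743, 2716 and 2628, against 767, 2003, 1117 and 739 in sham arrays, so that sham replicate 2 lay among the TAC values. Without that array the change was 1.36 and passed (adjusted p = 0.0365). At 48 h the change was 0.15 and at 3 wk −0.03, the value at 3 wk being −0.85 within the main scan day (adjusted p = 0.412). Eif2ak2, Eif2ak3 and Eif2ak4 were not tested. Eif6, which keeps the large ribosomal subunit from joining too early, read 0.24 at 10 d (SE 0.10, adjusted p = 0.156). Its TAC arrays read 3100.5, 3392, 3389 and 2973, against 2863, 2838, 2726 and 2434 in sham arrays, with no overlap. Eif5a was not tested.

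No elongation factor was called at any duration (6 tested probe sets of 6 genes). Eef1a1 and Eef1a2 encode the factor that brings aminoacyl-tRNA to the ribosome, Eef1a2 being the form of adult heart, skeletal muscle and brain. Eef1a1 read 0.31 at 10 d (SE 0.15, adjusted p = 0.238) with overlapping groups. At 3 wk it read 0.08, and 0.35 after quantile normalization (adjusted p = 0.0452). Eef1a2 read 0.14, 0.23 and −0.36 at 48 h, 10 d and 3 wk, with standard errors of 0.24 to 0.25. At 10 d it read −0.08 without TAC replicate 4, the array of another scan day. Eef2, which moves the ribosome 1 codon on, read 0.06, 0.13 and 0.05, and its 95% interval at 3 wk ran from −0.19 to 0.28. Eef1d, a subunit of the exchange factor of eEF1A, came nearest a call at 3 wk: 12532, 13515, 12613, 9324 and 10649 in TAC arrays, against 13534, 14060.2, 14644 and 16099.8 in sham arrays. The groups did not overlap, at a change of −0.32 (SE 0.11, adjusted p = 0.0842). Eef1b2, another subunit of that exchange factor, read 0.38, 0.94 and −0.32, with a standard error of 0.47 at 10 d (adjusted p = 0.259). Eef1akmt1, which its symbol brings into the set, encodes a methyltransferase of eEF1A and read −0.23 at 3 wk (adjusted p = 0.415), where its groups did not overlap. Eef2k, the kinase that inhibits eEF2, had the lowest value of any member at 3 wk, −0.86 (SE 0.44, adjusted p = 0.286), with TAC arrays from 158 to 1092 and sham arrays from 472 to 1639. Its groups overlapped, and its 95% interval ran from −1.77 to 0.05.

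Pabpc2 and Pabpc4 were not called. Pabpc2, a retrogene copy of Pabpc1 known from the testis, read −0.50 at 10 d (SE 0.23, adjusted p = 0.201), with overlapping groups. At 48 h it read −0.24 (adjusted p = 0.969). Pabpc4, a further cytoplasmic poly(A)-binding protein, had one probe set that read 0.08, 0.00 and 0.12 and another that read 0.05, −0.03 and −0.70, the last with adjusted p = 0.172 and −0.30 on the main scan day alone.

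For Eif1a and Eif3e, 2 probe sets gave different values at 10 d. For Eif1a, which helps the ribosome scan, one read 1269, 2149.7, 2145 and 1840.3 in TAC arrays, against 1119, 1177, 781 and 1145 in sham arrays. These groups did not overlap and the change was 0.80 (SE 0.24, adjusted p = 0.0554). The other read 812, 1114, 1093 and 1305 in TAC arrays, against 966, 1188, 1633 and 706 in sham arrays, a change of −0.01, and 0.41 at 3 wk (adjusted p = 0.412). For Eif3e, an eIF3 subunit, one probe set gave the lowest value of any member, −1.26 (SE 0.44, adjusted p = 0.0928), with 294, 576, 312 and 609 in TAC arrays, against 1005, 1212, 1079.7 and 797 in sham arrays. Its other probe set read 0.04, with 1476 to 2100.3 in TAC and 1475 to 1782 in sham arrays. At 3 wk the probe sets of Eif3e read −0.51 and 0.12, neither called. In both genes the TAC and sham arrays of one probe set were apart at 10 d while those of the other overlapped.

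**Figure D4:**
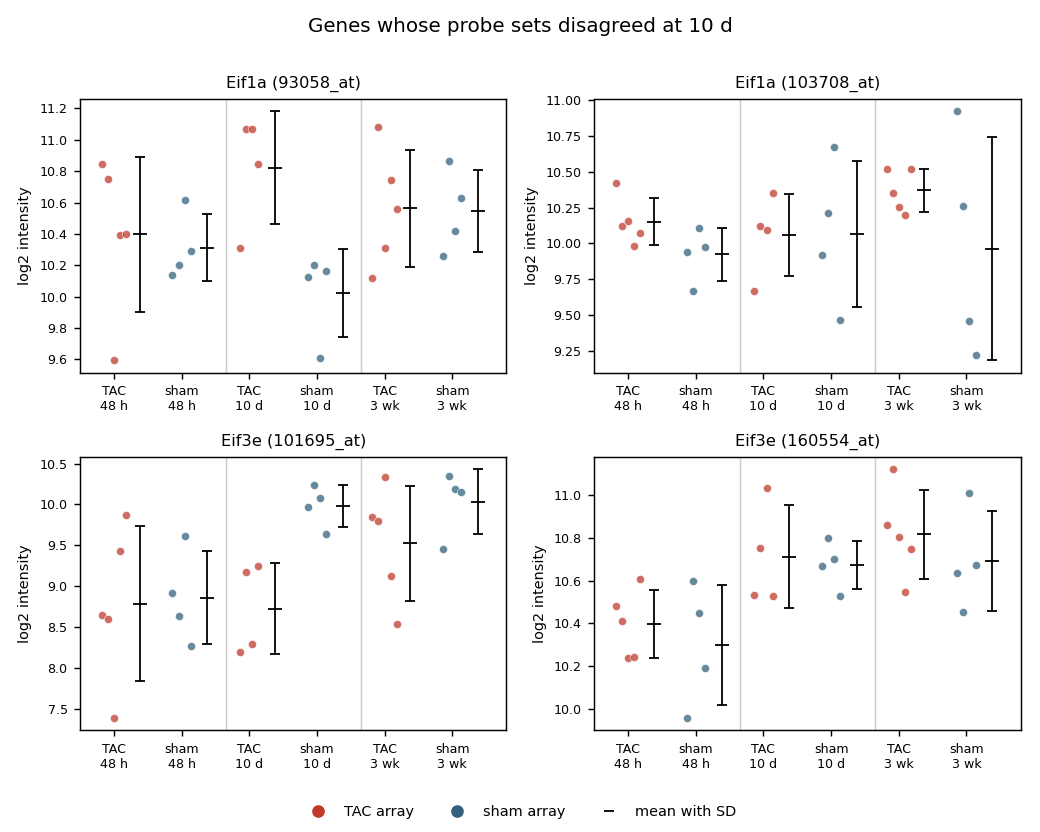
Log2 intensity (vertical axis) of both probe sets of Eif1a and of Eif3e on each array, grouped by duration with TAC left of sham; points are arrays and bars the mean with SD (n = 4 or 5). At 10 d the probe sets of Eif1a differed by 0.80 and −0.01 between TAC and sham, and those of Eif3e by −1.26 and 0.04.

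No member was called by the test of how the effect of TAC differed between durations. It called few probe sets of any kind: 0.0959% (10 d minus 48 h), 0.0274% (3 wk minus 10 d) and 0% (3 wk minus 48 h) of all tested. The lack of a call does not show that the effects were equal. At an unadjusted p under 0.05 the members counted 5, 5 and 1 of 51, beside 10.6%, 8.39% and 11.2% of all tested probe sets.

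More members were called between durations than between TAC and sham, as was so over the whole array. By an F test over the 3 sham groups, 18 of the 51 tested probe sets (35.3%) were called. That share lay near the 33.6% of all tested probe sets. Relative to 48 h, 8 of the 18 were higher and 10 lower at both 10 d and 3 wk. Each duration had scan days of its own, so that the effects of duration and of scan day cannot be told apart in these values. Array medians also differed between durations, and with median centring 28 members and 2817 of all probe sets were called. The 3′ to 5′ signal ratios differed as well. On the log2 scale the sham medians at 48 h, 10 d and 3 wk were −0.20, −0.15 and −0.02 for Gapdh and −0.34, 0.02 and 0.004 for Actb. The part of RNA quality in these calls was not tested. Eif2s3x read 16773 to 19389 in sham arrays at 48 h, 10571 to 11079 at 10 d and 7489.7 to 10108 at 3 wk, with no overlap. Its sham groups at 10 d and 3 wk stood 0.75 and 1.05 below that at 48 h on the log2 scale (adjusted p = 8.18e-08), and its TAC groups 0.68 and 0.75 below. Pabpc4 had the opposite direction: one probe set was 1.09 and 0.92 higher in sham arrays at 10 d and 3 wk than at 48 h (adjusted p = 9.12e-07), with 10270.2 to 20121 at 48 h and 27041 to 31844 at 10 d. The other probe set was 1.08 and 1.85 higher.

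Eef1a2 was 1.23 and 1.14 lower in sham arrays at 10 d and 3 wk than at 48 h (adjusted p = 0.000709), and 1.13 and 1.64 lower in TAC arrays. Eef1a1, its paralogue, was not called (adjusted p = 0.614). Eif2b4 was 0.84 and 0.89 lower (adjusted p = 8.54e-06) and Eif3l 0.62 and 0.52 lower (adjusted p = 7.18e-06). Eif1ax was called with both its probe sets, in opposite directions: one was 0.39 and 0.85 lower and the other 0.10 and 0.70 higher at 10 d and 3 wk. The further called genes were Eif2a, Eif3a, Eif4a1, Eef1d and one probe set of Eif5b, which were higher at the later durations, and Eif2ak1, Eif2b1, Eif3b, Eif3j1 and one probe set of Eif4b, which were lower. Eif2b1 and Eif2ak1, whose values at 10 d are given above, read −0.54 and −1.3 in sham arrays at 10 d relative to 48 h.

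**Figure D5:**
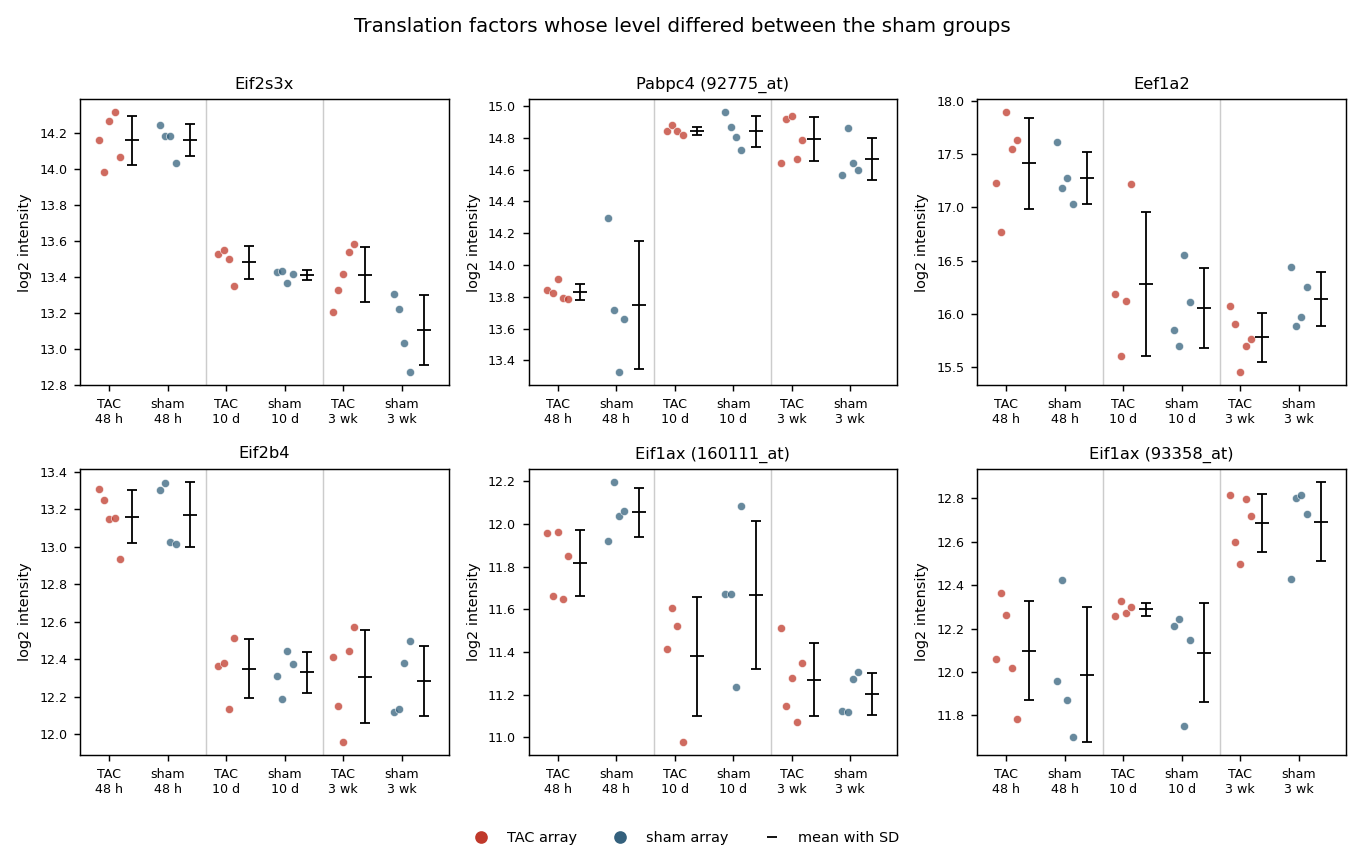
Log2 intensity (vertical axis) of Eif2s3x, Pabpc4, Eef1a2, Eif2b4 and both probe sets of Eif1ax on each array, grouped by duration with TAC left of sham; points are arrays and bars the mean with SD (n = 4 or 5). Eif2s3x averages 14.16 at 48 h, 13.48 at 10 d and 13.41 at 3 wk in TAC arrays, and 14.16, 13.41 and 13.11 in sham arrays.

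Other genes of the translation pathway, from lists written for this work, were also mostly uncalled. Of 21 tested cytosolic aminoacyl-tRNA synthetase genes, which charge tRNAs, 1 rose at 10 d, where 4.87% of all tested probe sets were called: Sars, the seryl enzyme, averaged 11.64 ± 0.15 (SD, n = 4) in TAC and 10.97 ± 0.22 (n = 4) in sham arrays on the log2 scale, a change of 0.68 (SE 0.16, adjusted p = 0.0110). The list had a median change of 0.06 at 10 d and 0.17 at 3 wk, beside −0.02 and −0.01 for all tested probe sets. Of 15 genes that signal to translation, 1 rose at 3 wk, where 4.73% of all tested probe sets were called: Ppp1r15b, which directs a phosphatase to eIF2, averaged 10.69 ± 0.21 (n = 5) in TAC and 10.12 ± 0.24 (n = 4) in sham arrays (log2 0.58, adjusted p = 0.0344). Of 4 mitochondrial translation factors 1 fell at 3 wk, beside the same background: Tsfm, the exchange factor of mitochondrial elongation, averaged 12.22 ± 0.15 (n = 5) in TAC and 12.55 ± 0.05 (n = 4) in sham arrays (−0.34, adjusted p = 0.0363). The calls of Sars, Ppp1r15b and Tsfm were not followed under the alternatives run for the members. Whether they hold within a scan day or without single arrays was therefore not tested.

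No gene was called at any duration among 6 for termination and recycling, 6 partners and repressors of initiation, 10 targets of the integrated stress response and 25 cytosolic ribosomal proteins. Etf1, the release factor that reads stop codons, read 0.34 at 3 wk (SE 0.11, adjusted p = 0.0675), where its groups did not overlap, and −0.16 at 10 d. Atf4, the transcription factor whose translation rises when eIF2 is phosphorylated, read 0.05, 0.16 and 0.01 at 48 h, 10 d and 3 wk. Ribosomal protein genes had median changes of 0.03, 0.10 and −0.08, with 23, 23 and 22 of the 25 within 0.25 of 0.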

How the data were processed

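The authors deposited 1 linear intensity for each probe set on each array, and the arrays were of the type MG_U74Av2 per the file headers. The probe summary method was not given in the sources used here. On every array the mean after trimming 2% at each end lay between 2501.81 and 2502.2, so arrays had been scaled to one level before deposit. The experiment files of the arrays give a scan day (5 days, none for 2 arrays).

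Control probe sets (66 of 12488) were left out. Values under the 20th percentile (167.9) were set to it, and log2 was taken. Probe sets above the pooled median (880.1) on at least 4 arrays were kept, which left 7297. Of the 51 members kept, 38 passed on all arrays. The 19 members not tested were, with their number of probe sets, those of Eif2s2 and Eif4e (2 each), Eif2ak2, Eif2ak3, Eif2ak4, Eif4enif1, Eif4h, Eif5a and Eef1g, and further probe sets of Eif4b (2), Eif2d, Eif3b, Eif3l, Eif4e2, Eif4ebp2 and Eef1b2. All 70 members matched a gene of the RefSeq table. One limma 3.58.1 model in R 4.3.3 (lmFit, then eBayes with its trend option) fitted 6 group means and gave TAC minus sham at 48 h, 10 d and 3 wk, how that effect differed between durations, and an F test over the sham groups. P-values were adjusted over all 7297 probe sets by Benjamini and Hochberg. The code was tested on simulated data.

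Members and gene lists were chosen with earlier results of these data known. Genes named are those called, the 5 largest rises and 5 largest falls per duration, and a standing list of paralogues and regulators; of other lists, genes called or, with none, the 2 brightest. Alternatives were other normalizations, floors, filters and moderation settings, weights for arrays, a fit of the compared groups alone, a block for scan day or for replicate number, the main scan day alone, 1 probe set per gene, and each array left out. The number of arrays limits the precision.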

Additional observations from a re-analysis of the deposited data

Results flagged for a closer look

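Of 234 groups of arrays checked for the 39 named member probe sets, 7 held 1 array far from the others by Dixon's criterion, where chance alone gives about 11.7. The values are log2 intensities. Low arrays were TAC replicate 5 at 3 wk for Eif4e2 (9.82), TAC replicate 4 at 48 h for Eif3m (13.04), TAC replicate 5 at 48 h for the dim probe set of Eif5b (7.39, the floor), sham replicate 3 at 48 h for Eif3a (10.79), sham replicate 3 at 10 d for the probe set of Eif1a that nearly passed (9.61) and sham replicate 2 at 10 d for Eif3b (13.46). The high one was TAC replicate 2 at 48 h for Eif2b2 (11.87). No array was picked out more than once.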

How the results depend on the processing

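The count of translation factors called at 10 d, 3 as reported, was 1 without a filter, 1 without an intensity trend, 6 with array weights, 0 with scan day as a block (282 of all probe sets called), 0 on the main scan day alone, and 0 to 2 without single arrays; over all settings it was 0 to 6, and 187 to 718 for all probe sets. At 3 wk the count of 0 became 2 with quantile normalization, 1 with median centring, 1 with the filter at the 70th percentile, and 0 to 1 without single arrays. Over all probe sets the count at 3 wk ranged from 19, with scan day as a block, to 456, with quantile normalization. Genes gained at 3 wk included Eef1a1 with quantile normalization (0.35), Eif2s3x with median centring (0.37), with the stricter filter, and without TAC replicate 1 or sham replicate 1, and Eif3j1 without sham replicate 4 (0.51). The sham F test count of 18 became 28 with median centring and 17 to 21 without single arrays. At 48 h and for the 3 differences between durations the count was 0 under every setting run for them. Of the 70 values of named probe sets by duration, 21 changed sign under some alternative, 18 of them without some single array, and none of these was called before or after; they were at most 0.38 in size as reported. On the main scan day alone, and with scan day as a block, 7 changed sign. At 3 wk Eif4a1, −0.14 as reported, read 0.138, Eif4ebp2, −0.14 and −0.10 by its 2 probe sets, read 0.121 and 0.25, Eif4a2, −0.10, read 0.01, and Eef1a1, 0.08, read −0.04. At 10 d Eef1a2, 0.23, read −0.08, and Eif4a1, 0.05, read −0.003. Eif2s3x at 3 wk, 0.31 as reported, read 0.19 there, and Eif2ak1 −0.85, against −0.03 as reported. The cause was not tested. With replicate number as a block the counts were 0, 3 and 0 at the 3 durations (8, 346 and 318 over all probe sets), with Pabpc1 lost (adjusted p = 0.0537) and Eif1a gained (0.0498); same-numbered arrays correlated at −0.131 to 0.032, so the numbers do not pair the arrays. Probe sets near the background limit what the dim members can show.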
